A study of Mus musculus with 11 samples.

Results

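Apolipoproteins are the proteins that coat lipid particles in blood, and 10 of their genes, Apoa1, Apoa2, Apoa4, Apoa5, Apob, Apoc1, Apoc3, Apoe, Apoh and Apom, were followed in mouse liver. They were chosen by name, as those probes other than control spots whose accession belongs to one of these RefSeq mouse symbols. All 10 genes were found, on 12 probes, among 22282 genes and unnamed transcripts tested in all. Apoa2 and Apob had 2 probes each, and the probe with the higher mean was used. All 12 probes were well above background on each of the 11 arrays, so no member was lost to a filter on low signals.

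The study profiled livers of mouse models of hepatoblastoma, a liver cancer of children. There were 11 male mice, each on its own 1-colour Agilent array: 4 labelled β-catΔEx3:Myc, 3 labelled β-catΔEx3 and 4 wild-type (WT). β-catΔEx3 is a form of β-catenin, the carrier of the Wnt signal to the nucleus, without the stretch encoded by exon 3, where phosphorylation normally targets the protein for destruction. Myc, a transcription factor, promotes cell growth and division. All mice were a hybrid of mainly B6SJL with a smaller share of 129S6, were untreated and were 22 to 40 days old. Single ages are known for 3 mice: 29 days for β-catΔEx3:Myc replicate 4, 30 days for β-catΔEx3 replicate 3 and 31 days for WT replicate 4. The promoter that drives each transgene is not given in the sources used here, and the design text describes the 4 β-catΔEx3:Myc livers only by c-Myc and all livers as bearing tumors, WT included. Nothing in the labels says whether tumor or surrounding tissue was taken, nor that replicates are independent litters, so p-values measure the spread between these samples.

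Most apolipoproteins of plasma are made by hepatocytes and, in part, by the enterocytes of the gut. Apob is the backbone of the very low density particles that carry triglyceride out of the liver, Apoa1 and Apoa2 form high density particles, and the small exchangeable members move between particles and steer lipases and receptors. Apoa1, Apoc3, Apoa4 and Apoa5 lie next to each other on chromosome 9, and Apoc1 and Apoe lie side by side on chromosome 7.

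In brief, Apoa1 was lower in both mutant groups than in WT livers. Apoa5, Apoh and Apom were lower in β-catΔEx3 livers, and Apoc3 was lower in β-catΔEx3:Myc livers. With array slide as a fixed term in the fit, only Apoa1 passed, and the Apoa5 call was also lost without any single WT array. Apoh and Apom lay below every WT array in β-catΔEx3:Myc livers too. They missed the threshold there but passed it with quantile normalization. Apoa2, Apoa4, Apob, Apoc1 and Apoe passed the test in neither comparison with WT. In β-catΔEx3:Myc livers, however, Apob passed with quantile normalization, and Apob and Apoc1 passed with another scaling of the arrays. No member passed the test between β-catΔEx3:Myc and β-catΔEx3 livers.

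Start-site windows from RefSeq (GRCm38.p6, 250 bases before to 50 after the start) were matched for 8 of the 10 members, all but Apoc1 and Apoc3, with 12 windows in all. The windows of the 4 members that were lower in β-catΔEx3 livers are printed here because these genes share that measurement. Capitals mark matches to any of 6 motifs, searched on both strands.
Apoa1, chr9:46228380-46228679, plus strand: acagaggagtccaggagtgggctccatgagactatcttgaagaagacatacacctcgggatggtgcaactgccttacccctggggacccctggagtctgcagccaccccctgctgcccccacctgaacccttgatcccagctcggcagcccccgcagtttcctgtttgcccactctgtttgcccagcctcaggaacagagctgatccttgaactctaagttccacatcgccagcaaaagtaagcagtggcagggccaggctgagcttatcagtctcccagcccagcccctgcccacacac
Apoa5, chr9:46268358-46268657, plus strand: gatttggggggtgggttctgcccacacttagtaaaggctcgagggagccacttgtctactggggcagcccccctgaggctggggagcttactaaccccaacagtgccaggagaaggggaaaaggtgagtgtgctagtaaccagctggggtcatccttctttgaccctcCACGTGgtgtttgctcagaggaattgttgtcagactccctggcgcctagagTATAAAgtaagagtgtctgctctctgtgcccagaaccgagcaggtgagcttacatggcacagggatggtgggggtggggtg
Apoh, chr11:108395047-108395346, plus strand: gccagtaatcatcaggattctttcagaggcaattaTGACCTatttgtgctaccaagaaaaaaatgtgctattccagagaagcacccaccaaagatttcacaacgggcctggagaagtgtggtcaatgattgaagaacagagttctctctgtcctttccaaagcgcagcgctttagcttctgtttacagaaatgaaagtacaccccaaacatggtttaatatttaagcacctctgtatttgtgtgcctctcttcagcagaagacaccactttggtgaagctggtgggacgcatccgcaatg
Apom, chr17:35131752-35132051, minus strand: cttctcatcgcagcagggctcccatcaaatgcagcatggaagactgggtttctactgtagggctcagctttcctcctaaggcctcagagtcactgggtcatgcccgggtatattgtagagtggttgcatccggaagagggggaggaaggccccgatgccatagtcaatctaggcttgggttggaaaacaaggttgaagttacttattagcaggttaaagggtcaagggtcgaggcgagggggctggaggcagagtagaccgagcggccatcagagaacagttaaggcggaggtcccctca

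The motif CACGTG, the E-box that Myc and its partner Max can bind, occurred among the members in Apoa5 alone, at position -82 from the start in the window shown. It was present in 2 of the 12 member windows, overlapping ones of Apoa5, and in 7.15% of all 32851 RefSeq windows of this length. The Tcf/Lef motif CTTTGAT, through which β-catenin acts, matched no member window, against 3.73% of all windows. The Hnf4a motif CAAAGTCCA matched none either, against 0.475%. TATAAA matched 5 of the 12 member windows, those of 4 members (Apoa2, Apoa5, Apob and Apoe) with overlapping windows of Apoa5 among them, and 13.6% of all windows. In Apoa5 it began at position -31 in the window shown, in Apob at -60 and in Apoa2 at -212. In Apoe it lay at -96, and at -100 on the other strand. The nuclear receptor half-site AGGTCA, added to the search later, matched 2 of the 12 member windows, of Apoa2 and Apoh, and 16.3% of all windows. GTTAAT, a half-site of Hnf1 added at the same time, matched 1 of the 12 member windows, of Apoe, and 7.10% of all windows. Apoa1 and Apom held no match, which says only that these letters are not in these windows.

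Signals below are scaled signals, the processed signal divided by the 75th percentile (upper quartile) of its array, and differences are given on the log2 scale. The upper quartile lay between 227 and 354 intensity units, the share of spots well above background was 49.0% to 53.4%, and none was saturated. Of 4 slides, one (slide 4) carried β-catΔEx3:Myc replicate 4, β-catΔEx3 replicate 3 and WT replicate 4. The other WT arrays shared slide 1, the first 2 arrays of each mutant group shared slide 2, and β-catΔEx3:Myc replicate 3 was on slide 3. A comparison with WT that treats slide as a block therefore rests on slide 4, and a block means a fixed term for each slide unless it is called random. Ctnnb1, the β-catenin gene, differed from WT by -0.17 ± 0.14 (SE) in β-catΔEx3:Myc livers and by -0.17 ± 0.15 in β-catΔEx3 livers, with adjusted p-values of 0.38 and 0.42 in limma. Where its probe lies relative to exon 3 was not determined, so this checks no label. Myc was higher in β-catΔEx3:Myc livers by 3.37 ± 0.68 (adjusted p = 0.0028), or by 3.97 without WT replicate 1, and its difference in β-catΔEx3 livers was 1.499 ± 0.73 (adjusted p = 0.13). The β-catΔEx3 value was 2.105 and passed without WT replicate 1 (adjusted p = 0.026).

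**Figure D1:**
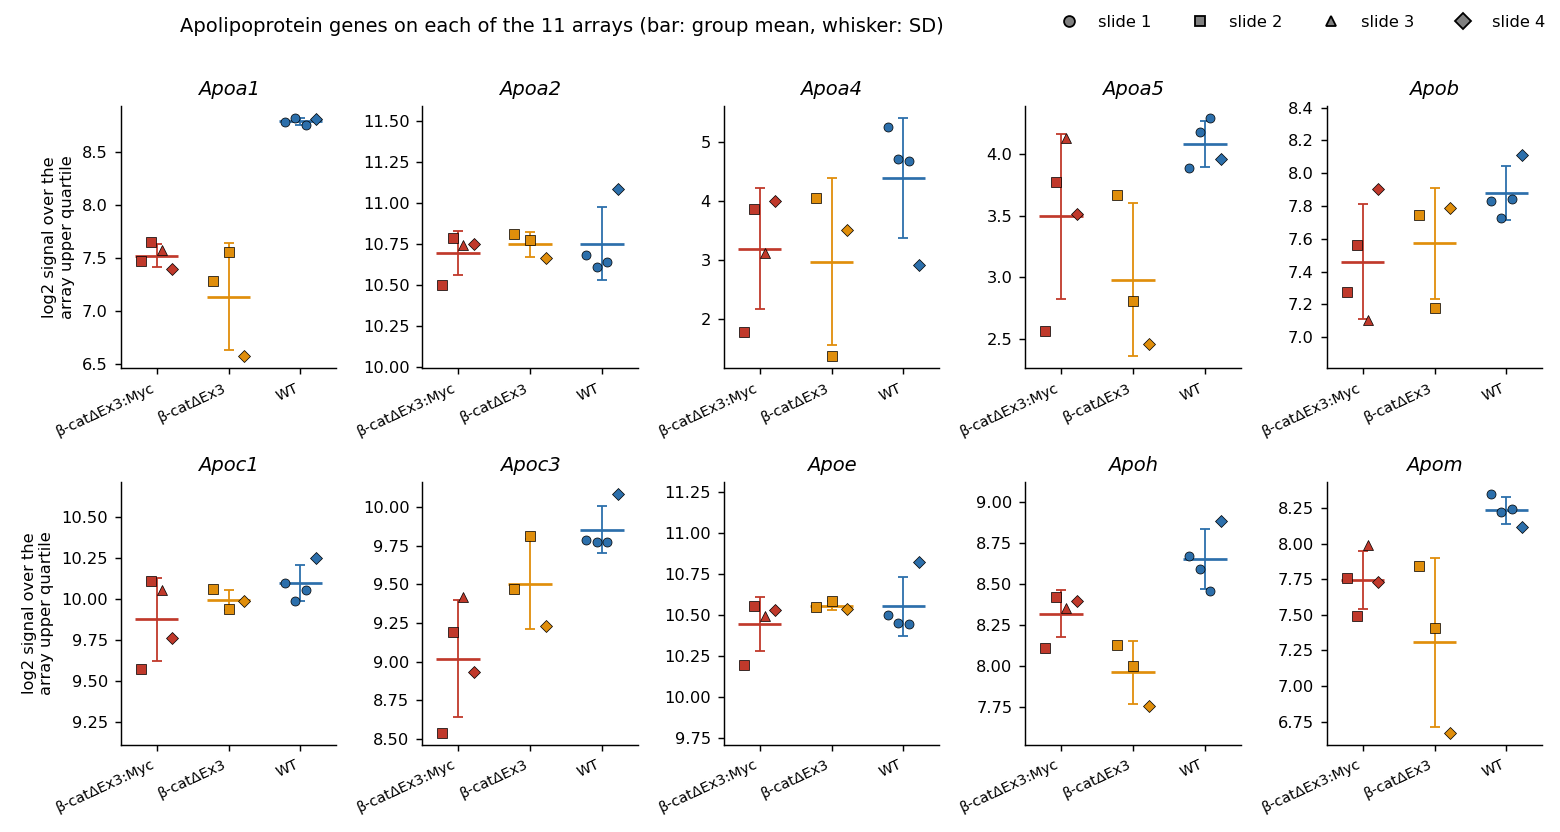
Each panel plots one gene's log2 scaled signal (vertical axis) on the arrays of β-catΔEx3:Myc, β-catΔEx3 and WT livers, with point shapes for slides, a bar for the group mean and a whisker for the SD. Apoa1 separates both mutant groups from the 4 WT arrays, and WT replicate 4 (slide 4) is the highest WT array for Apoa2, Apob, Apoc1, Apoc3, Apoe and Apoh.

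Among the proteins of high density particles, Apoa1 is their main structural protein and the activator of lecithin cholesterol acyltransferase. Its scaled signal was 178, 201, 191 and 168 in β-catΔEx3:Myc livers and 155, 188 and 94.97 in β-catΔEx3 livers, against 440, 453, 432 and 450 in WT livers. Both mutant groups lay wholly below WT and overlapped each other, and β-catΔEx3 replicate 3 was the lowest of all arrays. Apoa1 fell by 1.27 ± 0.19 on the log2 scale in β-catΔEx3:Myc livers, to 41.5% of WT (SE, n = 4 and 4, limma adjusted p = 5.9e-04). In β-catΔEx3 livers it fell by 1.66 ± 0.21, to 31.7% of WT (n = 3 and 4, limma adjusted p = 3.0e-04). The 95% intervals ran from -1.70 to -0.84 in β-catΔEx3:Myc and from -2.12 to -1.20 in β-catΔEx3 livers.

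Apoa1 was the only member that passed the test with slide as a fixed block, where its differences were -1.64 in β-catΔEx3:Myc livers and -2.02 in β-catΔEx3 livers (limma adjusted p = 0.022 and 0.012). On slide 4 alone its single arrays differed from WT replicate 4 by -1.42 in β-catΔEx3:Myc and -2.24 in β-catΔEx3 livers. The probe is spotted 10 times on each array, and its spots varied by 2.12% to 3.23% (coefficient of variation). The unscaled signal, 47585 to 63419 in β-catΔEx3:Myc, 27166 to 53973 in β-catΔEx3 and 102107 to 130441 in WT, likewise kept WT apart from both mutant groups, which overlapped each other.

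Apoa2, the second major protein of high density particles, did not separate the groups. Its scaled signal was 1449, 1770, 1720 and 1726 in β-catΔEx3:Myc livers and 1797, 1751 and 1623 in β-catΔEx3 livers, against 1643, 1563, 1596 and 2173 in WT livers. All groups overlapped, with β-catΔEx3:Myc replicate 1 lowest and WT replicate 4 highest. The differences from WT were -0.06 ± 0.14 in β-catΔEx3:Myc (limma adjusted p = 0.78) and -0.0045 ± 0.16 in β-catΔEx3 livers (adjusted p = 0.99). This probe gave 97.1% to 100% of the brightest processed signal of its array, and 57.8% to 73.4% of the scanner's saturation value. The other Apoa2 probe, at 51.1% to 57.6% of the brightest signal, gave differences of -0.08 ± 0.15 in β-catΔEx3:Myc and -0.09 ± 0.16 in β-catΔEx3 livers.

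Apom, a lipocalin that carries sphingosine-1-phosphate on high density particles, had scaled signals of 216, 180, 254 and 212 in β-catΔEx3:Myc livers and 230, 170 and 102 in β-catΔEx3 livers. In WT livers they were 326, 299, 303 and 278. Both mutant groups lay below every WT array, and the mutant groups overlapped each other. Apom fell by 0.93 ± 0.24 in β-catΔEx3 livers, to 52.6% of WT (limma adjusted p = 0.013). In β-catΔEx3:Myc livers the difference was -0.49 ± 0.23, which missed the threshold (adjusted p = 0.10). It passed there when only those 2 groups entered the fit (adjusted p = 0.022) and without β-catΔEx3 replicate 3 (adjusted p = 0.028). Blocked by slide, the differences were -0.74 in β-catΔEx3:Myc and -1.09 in β-catΔEx3 livers, and neither passed (adjusted p = 0.26 and 0.13).

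Among the members that act on triglyceride, Apoa5 speeds the breakdown of triglyceride-rich particles by lipoprotein lipase, and Apoc3 slows it. Apoa5 had scaled signals of 5.92, 13.7, 17.5 and 11.4 in β-catΔEx3:Myc livers and 12.7, 7.003 and 5.51 in β-catΔEx3 livers, against 14.8, 18.2, 19.6 and 15.6 in WT livers. The β-catΔEx3 arrays lay below WT, while β-catΔEx3:Myc replicate 3 fell within the WT range. Apoa5 fell by 1.102 ± 0.37 in β-catΔEx3 livers, to 46.6% of WT (limma adjusted p = 0.038), and differed by -0.59 ± 0.34 in β-catΔEx3:Myc livers (adjusted p = 0.19). The call in β-catΔEx3 livers was lost without any 1 WT array (adjusted p = 0.056 to 0.084, without replicate 1 and replicate 3), without β-catΔEx3 replicate 2 (0.097) or replicate 3 (0.14), and with slide as a block (difference -1.12, adjusted p = 0.30). It was also lost with slide as a random block (adjusted p = 0.053) and with no filter on dim probes (0.064).

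Apoc3 showed its lowest signals in the β-catΔEx3:Myc group. Its scaled signal was 372, 583, 685 and 488 in β-catΔEx3:Myc livers and 708, 899 and 601 in β-catΔEx3 livers, against 882, 874, 877 and 1086 in WT livers. All β-catΔEx3:Myc arrays lay below WT, and β-catΔEx3 replicate 2 lay inside the WT range. Apoc3 fell by 0.83 ± 0.21 in β-catΔEx3:Myc livers, to 56.1% of WT (limma adjusted p = 0.0080). In β-catΔEx3 livers it differed by -0.35 ± 0.22 (adjusted p = 0.24). Under the slide block the difference in β-catΔEx3:Myc livers was -1.31 and missed the threshold (adjusted p = 0.057), and that in β-catΔEx3 livers was -0.69 (adjusted p = 0.24).

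Apoc1, a small exchangeable protein that hinders lipoprotein uptake, had scaled signals of 764, 1108, 1063 and 868 in β-catΔEx3:Myc livers. They were 1070, 981 and 1014 in β-catΔEx3 livers and 1098, 1016, 1065 and 1217 in WT livers. The groups overlapped, and its differences from WT were -0.22 ± 0.15 in β-catΔEx3:Myc and -0.10 ± 0.16 in β-catΔEx3 livers (limma adjusted p = 0.25 and 0.65).

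Apob had scaled signals of 155, 189, 138 and 239 in β-catΔEx3:Myc livers and 214, 145 and 221 in β-catΔEx3 livers, against 228, 211, 230 and 277 in WT livers. In all, 1 β-catΔEx3:Myc array and 2 β-catΔEx3 arrays lay within the WT range. Its differences were -0.42 ± 0.21 in β-catΔEx3:Myc and -0.31 ± 0.22 in β-catΔEx3 livers (limma adjusted p = 0.13 and 0.31). Without β-catΔEx3:Myc replicate 4 the difference in β-catΔEx3:Myc livers was -0.56 and passed (adjusted p = 0.042). The other Apob probe gave 0.07 ± 0.20 in β-catΔEx3:Myc and 0.0011 ± 0.22 in β-catΔEx3 livers. Both values lie within their SE of 0, so the negative differences rest on the first probe.

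Apoa4, made by enterocytes and, in mice, also by the liver, was the most variable member, with a 14.9-fold range over the 11 arrays. Its scaled signal was 3.40, 14.6, 8.66 and 16.0 in β-catΔEx3:Myc livers and 16.5, 2.56 and 11.3 in β-catΔEx3 livers, against 38.03, 26.0, 25.4 and 7.48 in WT livers. WT replicate 4 lay among the mutant arrays, and the other WT arrays lay above them all. The differences were -1.19 ± 0.71 in β-catΔEx3:Myc and -1.41 ± 0.76 in β-catΔEx3 livers (limma adjusted p = 0.20 and 0.17). Without β-catΔEx3 replicate 2 the β-catΔEx3 value was -0.61. In the slide-blocked fit the differences turned to 0.97 in β-catΔEx3:Myc and 0.72 in β-catΔEx3 livers, and neither passed (adjusted p = 0.63 and 0.74).

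Of 7 enterocyte markers, 2 could be tested. The summed scaled signal of 7 enterocyte genes was 11.0 to 51.4 in β-catΔEx3:Myc livers and 9.05 to 21.0 in β-catΔEx3 livers, against 93.0 to 119.5 in WT livers. Fabp2, the fatty acid binding protein of the gut, passed, at -2.40 ± 0.45 in β-catΔEx3:Myc and -2.98 ± 0.49 in β-catΔEx3 livers (limma adjusted p = 0.0020 and 0.0012). It did not pass when slide was a block (adjusted p = 0.24 and 0.14). The other, Vil1, named here after its values were seen, did not pass and differed by 1.06 in β-catΔEx3:Myc and -0.81 in β-catΔEx3 livers. The mean log2 scaled signal of Fabp2 was 4.28 in β-catΔEx3:Myc and 3.70 in β-catΔEx3 livers, against 6.68 in WT livers, so this 1 gene makes up most of the WT sum. Sis, Alpi and Cdx2 were above background on no array. The part of these genes in the Apoa4 and Apob values was not tested.

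Apoe, the ligand through which the liver takes up remnant particles, had scaled signals of 1173, 1501, 1439 and 1477 in β-catΔEx3:Myc livers and 1497, 1535 and 1480 in β-catΔEx3 livers. In WT livers they were 1446, 1395, 1393 and 1806. The β-catΔEx3 arrays lay within the WT range, and β-catΔEx3:Myc replicate 1 was lowest. Its differences from WT were -0.11 ± 0.14 in β-catΔEx3:Myc and 0.0030 ± 0.15 in β-catΔEx3 livers (limma adjusted p = 0.55 and 0.99). The 95% interval was -0.42 to 0.20 in β-catΔEx3:Myc and -0.33 to 0.33 in β-catΔEx3 livers.

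The mean over its spots put the Apoe probe at 80.9% to 88.7% of the brightest signal of an array. The brightest of its spots on each array reached 58.5% to 71.3% of the scanner's saturation value. Its 10 spots varied by 9.26% to 12.6% within an array, and 6 of its spots over all arrays were set aside as outliers. Its unscaled signal spanned 414031 to 478372 in β-catΔEx3:Myc, 411052 to 440779 in β-catΔEx3 and 401505 to 418570 in WT, a 1.19-fold range overall. The upper quartile used for scaling spanned a 1.56-fold range, lowest on WT replicate 4 and highest on β-catΔEx3:Myc replicate 1.

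**Figure D2:**
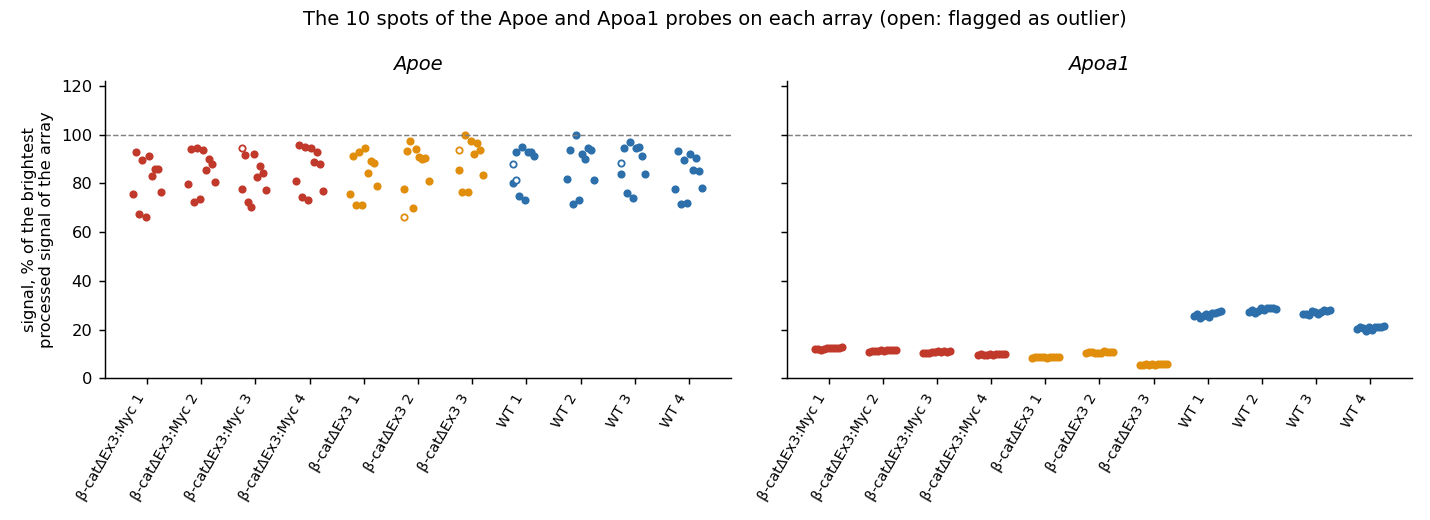
The vertical axis is the processed signal of each of the 10 spots of the Apoe probe (left) and the Apoa1 probe (right), as percent of the brightest processed signal of the same array (dashed line at 100%), for each array of the 3 groups. Apoe spots lie between 66.1% and 100% on all arrays, and Apoa1 spots lie between 5.36% and 28.9%, highest on the WT arrays.

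Macrophages also make Apoe. All 10 macrophage markers tested were lower in β-catΔEx3:Myc livers than in WT, and all 10 in β-catΔEx3 livers, beside 17.1% and 15.5% of all items. When slide was a block, 0 of 10 passed in either comparison. Their summed scaled signal was 18.4 to 68.4 in β-catΔEx3:Myc livers and 21.5 to 62.8 in β-catΔEx3 livers, against 245 to 374 in WT livers. Every marker of this list on the array was above background somewhere. Fewer macrophages and less RNA per macrophage cannot be told apart in whole tissue, and the part of these cells in the Apoe values was not tested.

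Apoh, a plasma glycoprotein that binds negatively charged phospholipid and is also called β2-glycoprotein I, had scaled signals of 276, 343, 328 and 337 in β-catΔEx3:Myc livers and 280, 256 and 216 in β-catΔEx3 livers. In WT livers they were 408, 387, 352 and 474. Both mutant groups lay below every WT array. Apoh fell by 0.69 ± 0.16 in β-catΔEx3 livers, to 61.9% of WT (limma adjusted p = 0.0068), and differed by -0.33 ± 0.15 in β-catΔEx3:Myc livers (adjusted p = 0.092). Blocked by slide, the difference was -0.64 in β-catΔEx3:Myc and -0.99 in β-catΔEx3 livers (adjusted p = 0.16 and 0.063).

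Counted together, 2 of the 10 genes were lower and 0 higher in β-catΔEx3:Myc livers than in WT, where 42.4% of all items tested passed, 17.1% lower and 25.3% higher. In β-catΔEx3 livers 4 of the 10 were lower and 0 higher, where 37.1% of all items passed, 15.5% lower and 21.6% higher. The median difference of the 10 genes was -0.45 in β-catΔEx3:Myc and -0.52 in β-catΔEx3 livers, beside medians over all items of 0.14 in β-catΔEx3:Myc and 0.10 in β-catΔEx3 livers. In each comparison 4 of the 10 lay below WT with no overlap, which held for 17.5% of all items in β-catΔEx3:Myc and 18.8% in β-catΔEx3 livers (42.4% and 43.7% in either direction). Apoa1 alone of the 10 passed in each comparison once slide was a fixed block, and over all items 1947 passed in β-catΔEx3:Myc livers in place of 9451, and 1812 in β-catΔEx3 livers in place of 8266. With slide as a random block, Apoa1 and Apoc3 passed in β-catΔEx3:Myc livers and Apoa1, Apoh and Apom in β-catΔEx3 livers (limma adjusted p = 0.0099 for Apoc3, 0.0080 for Apoh and 0.016 for Apom). Both comparisons use the same WT arrays, so their values are not independent.

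The count in β-catΔEx3:Myc livers depended on how arrays were scaled. It was 5 with quantile normalization and in a fit to the deposited value table, both of which added Apob, Apoh and Apom, and 6 with the upper quartile over detected probes, which added Apoc1 as well. All of these were lower. Of all 22282 items, 4443 were lower with quantile normalization, 4260 in the deposited table and 4741 with the last scaling, in place of 3814. The last scaling moved the median of all items by -0.15 in β-catΔEx3:Myc and -0.18 in β-catΔEx3 livers, and the share of called items that were higher was 48.3% in β-catΔEx3:Myc livers in place of 59.6%, and 42.3% in β-catΔEx3 livers in place of 58.1%. In β-catΔEx3 livers Apoa1, Apoa5, Apoh and Apom passed under each scaling tried.

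**Figure D3:**
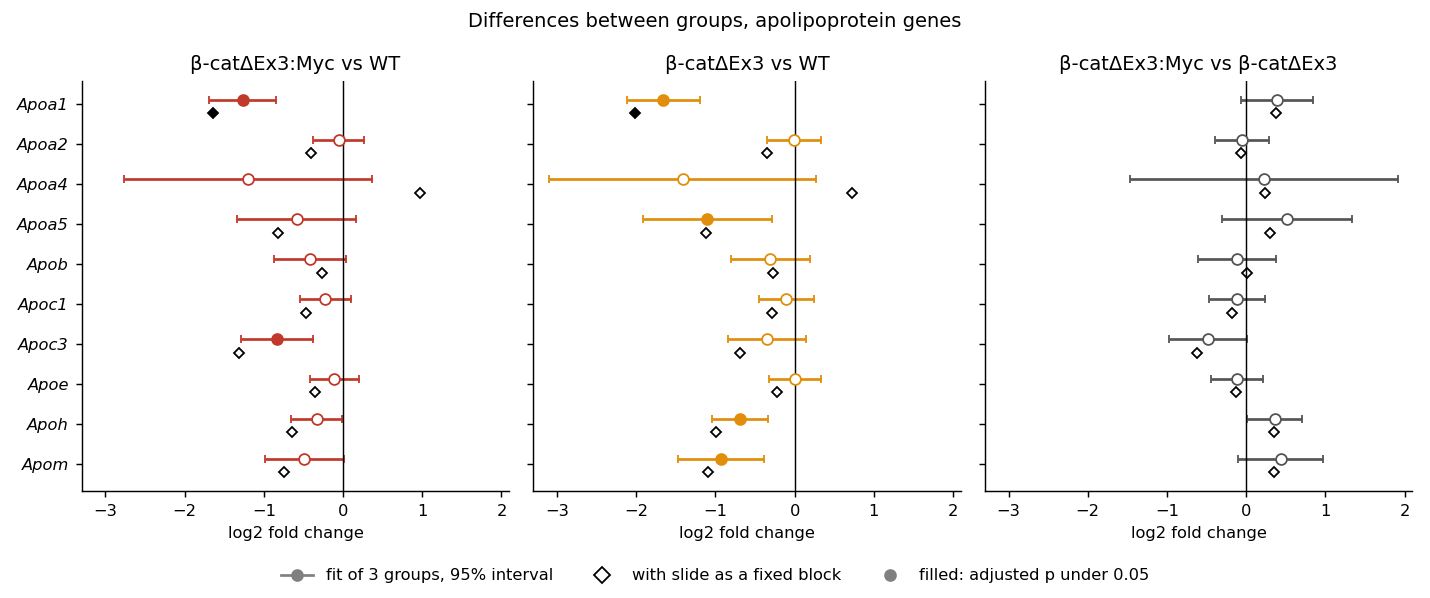
Points give the log2 fold change (horizontal axis) of each of the 10 genes for β-catΔEx3:Myc over WT, β-catΔEx3 over WT and β-catΔEx3:Myc over β-catΔEx3, with 95% intervals. Diamonds are slide-blocked values, filled symbols had an adjusted p under 0.05, and Apoa1 is the only gene with filled diamonds, at -1.64 in β-catΔEx3:Myc and -2.02 in β-catΔEx3 livers.

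Between β-catΔEx3:Myc and β-catΔEx3 livers 0 of the 10 genes passed, and 1 had an unadjusted p under 0.05, while 0.251% of all items passed. None of the 10 separated these groups without overlap, which 8.1% of all items did (4.19% of all items in the lower direction). That gene was Apoh, higher by 0.36 ± 0.16 in β-catΔEx3:Myc livers (95% interval 0.0084 to 0.71, limma adjusted p = 0.47). Apoa1 differed by 0.39 with an interval from -0.07 to 0.85, Apom by 0.44 from -0.10 to 0.98, and Apoc3 by -0.48 from -0.98 to 0.0073. For Apoa4 the interval ran from -1.47 to 1.91, so large differences either way remained within the error. The differences did not point one way, with 5 of the 10 positive and 5 negative.

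Gene order was set beside these values after they had been seen. On chromosome 9 the order was Sik3, Apoa1, Apoc3, Apoa4, Apoa5 and Zpr1. All 4 apolipoprotein genes had negative differences in both comparisons with WT, from -1.66 to -0.35. Of all 10 members, 10 in β-catΔEx3:Myc and 9 in β-catΔEx3 livers were negative. Apoa4 was positive in the slide-blocked fit, at 0.97 in β-catΔEx3:Myc and 0.72 in β-catΔEx3 livers, and did not pass. Further out, Tagln, Sidt2, Pafah1b2 and Bud13 were also negative in both comparisons, from -0.78 to -0.11, and none of them passed. Sik3, a kinase gene on one side, differed by 0.18 ± 0.21 in β-catΔEx3:Myc and -0.08 ± 0.23 in β-catΔEx3 livers (limma adjusted p = 0.52 and 0.80). Zpr1, a zinc finger protein gene on the other side, was higher by 0.86 ± 0.18 in β-catΔEx3:Myc and 0.94 ± 0.19 in β-catΔEx3 livers (adjusted p = 0.0031 and 0.0039). On chromosome 7, next to Apoc1 and Apoe, Tomm40, a subunit of the protein import channel of mitochondria, was higher by 1.65 ± 0.19 in β-catΔEx3:Myc and 1.61 ± 0.20 in β-catΔEx3 livers (adjusted p = 1.2e-04 and 3.1e-04). Apoc4, on the other side of Apoc1, differed by 0.28 ± 0.20 in β-catΔEx3:Myc and 0.13 ± 0.21 in β-catΔEx3 livers (adjusted p = 0.28 and 0.67).

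**Figure D4:**
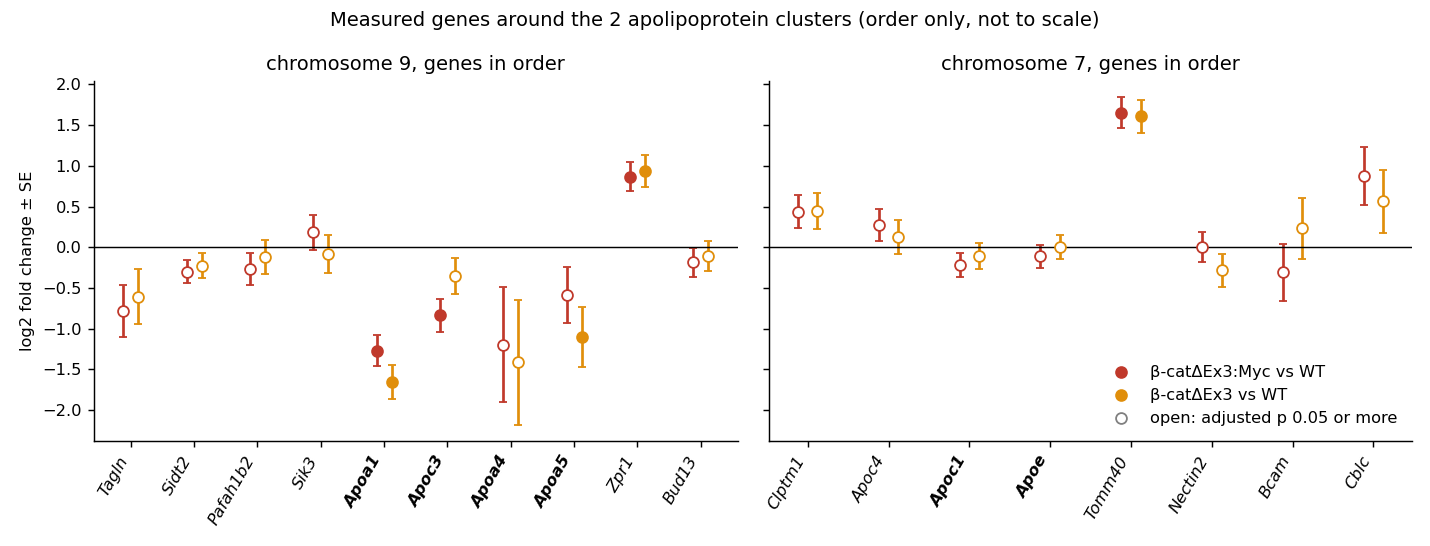
Log2 fold change with SE (vertical axis) of the measured genes around the 2 clusters, in gene order and not to scale, for β-catΔEx3:Myc and for β-catΔEx3 livers over WT. Filled points passed an adjusted p of 0.05. The 4 members on chromosome 9 lie below 0, as do Tagln, Sidt2, Pafah1b2 and Bud13 with open points. The neighbour Zpr1 lies at 0.86 in β-catΔEx3:Myc and 0.94 in β-catΔEx3 livers.

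As a description of how the members varied together, Pearson correlations of log2 scaled signal were computed for all 45 pairs over the 11 arrays. They ran from -0.10 to 0.94 with a median of 0.43. With group means subtracted they ran from -0.51 to 0.96 with a median of 0.38. The highest was between Apoa2 and Apoe in both cases, the pair with the brightest probes. Apoa1 tracked Apoh at 0.87 and Apom at 0.85 over the 11 arrays, and at 0.51 and 0.66 within groups. Arrays share their scaling, slide and group, so these values carry no test.

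Across the 11 arrays the genes most like each called member were also listed by correlation, among 13956 genes and with group differences left in. The highest of so many values are high by selection, so these carry no test. Elovl2, which lengthens polyunsaturated fatty acids, was closest to Apoa1 (r = 0.98), followed by Olfr740 (0.98), an olfactory receptor gene. Tle1, a corepressor that Tcf factors can recruit, and Azgp1, a secreted glycoprotein of plasma, were closest to Apoa5 (0.95 and 0.93). Fam161a and Wnt5a were closest to Apoc3 (0.96 and 0.95), Fryl and Kcna4 to Apoh (0.97 and 0.96), and Tmem176b and Gm4951 to Apom (0.96 and 0.94).

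Other apolipoproteins of the liver included genes that moved further than the 10. Of 9 tested, 3 were lower and 1 higher in β-catΔEx3:Myc livers, and 4 were lower and 1 higher in β-catΔEx3 livers. Of all items, 17.1% were lower and 25.3% higher in β-catΔEx3:Myc livers, and 15.5% lower and 21.6% higher in β-catΔEx3 livers. The median differences of the 9 were -1.38 in β-catΔEx3:Myc and -2.02 in β-catΔEx3 livers. Apon, a plasma apolipoprotein gene, was lower in both, at -3.72 ± 0.50 in β-catΔEx3:Myc and -3.91 ± 0.54 in β-catΔEx3 livers (limma adjusted p = 3.1e-04 and 5.2e-04), and the β-catΔEx3 value was -4.59 without β-catΔEx3 replicate 2. None of the 9 passed with the slide block, and Apon was at -4.13 in β-catΔEx3:Myc and -4.19 in β-catΔEx3 livers (adjusted p = 0.052 for both).

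For the assembly of Apob particles, 2 of 12 genes were lower and 0 higher in β-catΔEx3:Myc livers, and 2 were lower and 1 higher in β-catΔEx3 livers. The lower ones were 16.7% of the list, near the 17.1% of all items in β-catΔEx3:Myc and 15.5% in β-catΔEx3 livers. Of all items, 25.3% in β-catΔEx3:Myc and 21.6% in β-catΔEx3 livers were higher. The list medians were -0.05 in β-catΔEx3:Myc and -0.03 in β-catΔEx3 livers. Mttp, which loads lipid onto Apob, was lower, at -0.84 ± 0.17 in β-catΔEx3:Myc and -1.01 ± 0.18 in β-catΔEx3 livers (limma adjusted p = 0.0024 and 0.0018). Pla2g12b, needed for full-sized triglyceride-rich particles, was lower too, at -0.78 ± 0.21 in β-catΔEx3:Myc and -0.99 ± 0.23 in β-catΔEx3 livers (adjusted p = 0.012 and 0.0067). Tm6sf2, which acts in lipid loading of these particles, was higher by 1.08 ± 0.29 in β-catΔEx3 livers (adjusted p = 0.015) and differed by 0.44 ± 0.27 in β-catΔEx3:Myc livers (adjusted p = 0.22). Tm6sf2 passed in β-catΔEx3:Myc livers without β-catΔEx3:Myc replicate 4 (0.69, adjusted p = 0.029), and Pla2g12b did not pass there on unscaled signals (-0.60, adjusted p = 0.075). None of the 12 passed with the slide block.

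Of 14 lipases and remodelling proteins, 3 were lower and 1 higher in each comparison with WT, with medians of -0.37 in β-catΔEx3:Myc and -0.23 in β-catΔEx3 livers. The lower ones were 21.4% of the list, beside 17.1% of all items in β-catΔEx3:Myc and 15.5% in β-catΔEx3 livers. Lipc, the hepatic lipase that trims remnant and high density particles, was lower, at -1.63 ± 0.20 in β-catΔEx3:Myc and -2.77 ± 0.22 in β-catΔEx3 livers (limma adjusted p = 1.9e-04 and 2.0e-05), and passed with slide as a block at -2.02 in β-catΔEx3:Myc and -3.12 in β-catΔEx3 livers (adjusted p = 0.018 and 0.0050). Pltp, which moves phospholipid onto high density particles, was lower, at -3.07 ± 0.60 in β-catΔEx3:Myc and -2.62 ± 0.65 in β-catΔEx3 livers (adjusted p = 0.0025 and 0.010), or at -3.70 in β-catΔEx3:Myc and -3.25 in β-catΔEx3 livers without WT replicate 4. The slide-blocked values were -1.15 in β-catΔEx3:Myc and -0.49 in β-catΔEx3 livers (adjusted p = 0.32 and 0.69).

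Receptors and uptake proteins showed 4 lower and 1 higher of 9 in each comparison, with medians of -0.20 in β-catΔEx3:Myc and -0.0020 in β-catΔEx3 livers. The share lower was 44.4%, beside 17.1% of all items in β-catΔEx3:Myc and 15.5% in β-catΔEx3 livers. In the slide-blocked fit 0 of the 9 were lower and 1 was higher in each comparison. Vldlr, which binds Apoe-rich particles, was the higher one, by 2.53 ± 0.67 in β-catΔEx3:Myc and 3.68 ± 0.72 in β-catΔEx3 livers (limma adjusted p = 0.011 and 0.0031). It was higher by 1.82 in β-catΔEx3:Myc and 2.96 in β-catΔEx3 livers without WT replicate 4, and by 4.79 in β-catΔEx3:Myc and 6.08 in β-catΔEx3 livers with slide as a block (adjusted p = 0.018 and 0.0090). Lrpap1, a chaperone of these receptors, was lower, at -1.06 ± 0.19 in β-catΔEx3:Myc and -1.07 ± 0.21 in β-catΔEx3 livers (adjusted p = 0.0015 and 0.0030), and did not pass with slide as a block (adjusted p = 0.11 and 0.12). Of 4 sterol efflux transporters, Abca1, which passes cholesterol to Apoa1, fell by 0.83 ± 0.15 in β-catΔEx3:Myc livers (adjusted p = 0.0019) and differed by -0.36 ± 0.17 in β-catΔEx3 livers (adjusted p = 0.11). The β-catΔEx3 value passed at -0.56 with quantile normalization, -0.54 with the 75th percentile over detected probes and -0.52 in the deposited table (adjusted p = 0.016, 0.019 and 0.017). Blocked by slide, its β-catΔEx3:Myc value was -0.83 (adjusted p = 0.076).

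Among 27 factors known to regulate apolipoprotein genes, 11 were lower and 3 higher in each comparison, with medians of -0.45 in β-catΔEx3:Myc and -0.42 in β-catΔEx3 livers. The share lower was 40.7%, beside 17.1% of all items in β-catΔEx3:Myc and 15.5% in β-catΔEx3 livers. Srebf1, a driver of lipid synthesis genes, was lower, at -3.57 ± 0.45 in β-catΔEx3:Myc and -3.20 ± 0.48 in β-catΔEx3 livers (limma adjusted p = 2.1e-04 and 7.9e-04). The β-catΔEx3 value was -3.80 without β-catΔEx3 replicate 2, and with slide as a block the values were -3.82 in β-catΔEx3:Myc and -3.70 in β-catΔEx3 livers (adjusted p = 0.038 and 0.043). Onecut1, a hepatocyte transcription factor, was lower, at -4.69 ± 0.49 in β-catΔEx3:Myc and -3.68 ± 0.53 in β-catΔEx3 livers (adjusted p = 7.7e-05 and 6.4e-04), but 1 of 4 β-catΔEx3:Myc arrays read it above background and the size depended on the background treatment. With normexp correction the values were -2.32 in β-catΔEx3:Myc and -2.01 in β-catΔEx3 livers. Its slide-blocked values were -3.20 in β-catΔEx3:Myc (adjusted p = 0.026) and -2.05 in β-catΔEx3 livers (0.079). In that fit 5 of these 27 were lower in β-catΔEx3:Myc and 3 in β-catΔEx3 livers, and none higher.

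The apolipoproteins were set beside 30 other plasma proteins that hepatocytes secrete. Of these, 15 were lower and 1 higher in β-catΔEx3:Myc livers, and 16 lower and 1 higher in β-catΔEx3 livers, with medians of -0.58 in β-catΔEx3:Myc and -0.69 in β-catΔEx3 livers. The share lower was 50% in β-catΔEx3:Myc and 53.3% in β-catΔEx3 livers, beside 17.1% and 15.5% of all items. Blocked by slide, 4 of the 30 in β-catΔEx3:Myc and 6 in β-catΔEx3 livers were lower and none higher. Itih1, an inter-alpha-trypsin inhibitor chain, was lower, at -2.56 ± 0.30 in β-catΔEx3:Myc and -2.40 ± 0.32 in β-catΔEx3 livers (limma adjusted p = 1.4e-04 and 4.4e-04). Fga, a chain of fibrinogen, was lower, at -1.85 ± 0.31 in β-catΔEx3:Myc and -1.98 ± 0.34 in β-catΔEx3 livers (adjusted p = 0.0011 and 0.0015), and passed the slide-blocked fit in β-catΔEx3:Myc livers alone (adjusted p = 0.048 and 0.055). The difference between the lists was not tested.

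Hepatocyte markers were present in all livers. Their summed scaled signal was 2233 to 3510 in β-catΔEx3:Myc and 2108 to 3181 in β-catΔEx3 livers, against 2673 to 3467 in WT livers, and of 9 genes 1 was lower and 2 higher in β-catΔEx3:Myc and 2 lower and 0 higher in β-catΔEx3 livers. Blocked by slide, 0 of the 9 passed in either comparison. Of the hepatoblast markers, 4 of 4 were higher in β-catΔEx3:Myc and 1 of 4 in β-catΔEx3 livers, beside 25.3% and 21.6% of all items. The summed signal of these markers was 253 to 686 in β-catΔEx3:Myc and 90.3 to 125 in β-catΔEx3 livers, against 1.90 to 23.9 in WT livers. Afp, at a mean log2 scaled signal of 6.76 in β-catΔEx3 and 2.08 in WT livers, makes up most of the β-catΔEx3 sum. Dlk1, Gpc3 and Igf2 differed from WT in β-catΔEx3 livers by 0.22, -0.82 and -0.72 and did not pass. The slide block left 3 of 4 in β-catΔEx3:Myc and 0 of 4 in β-catΔEx3 livers. The part of immature cells in the apolipoprotein values was not tested.

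**Figure D5:**
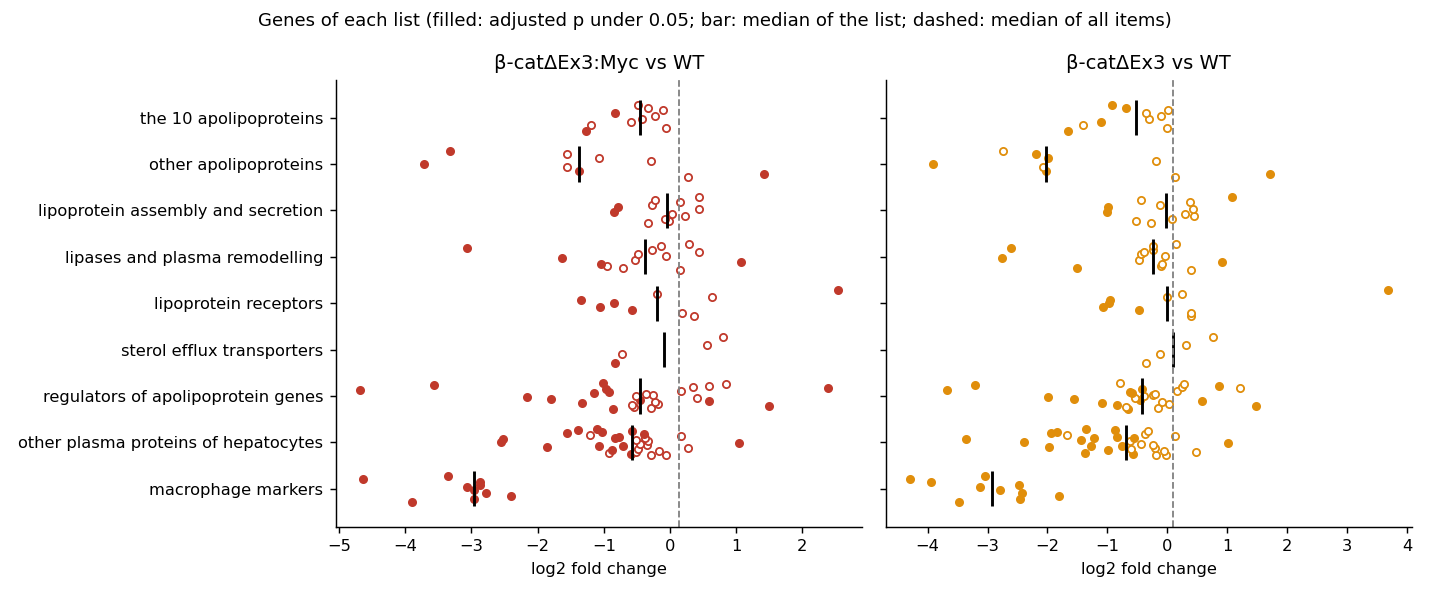
Each point is a gene of the list named on the vertical axis, at its log2 fold change (horizontal axis) in β-catΔEx3:Myc (left) and β-catΔEx3 livers (right) over WT. Filled points passed an adjusted p of 0.05, bars are list medians, and the dashed line is the median of all items, 0.14 on the left and 0.10 on the right. All 10 macrophage markers lie to its left in both panels, and the lipoprotein receptor gene Vldlr lies at 2.53 in β-catΔEx3:Myc and 3.68 in β-catΔEx3 livers.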

How the data were processed

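Total RNA of 11 mouse livers was hybridised to 1-colour (Cy3) arrays, and the spots were read with Agilent Feature Extraction 10.7.1.1, per the file headers. The authors deposited processed signals in intensity units for each spot, background-subtracted, together with median foreground and background intensity and flags. They also deposited a table of log2 values. Its columns have identical quantiles (median 4.51), so it was quantile normalized. It served as an alternative.

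Control spots and outlier spots (137 to 209 an array) were left out, and the other spots of a probe were averaged in log2 units, relative to the array's 75th percentile. Probes well above background on at least 3 of the 11 arrays were kept, 29695 of 55681, and of several probes of a gene the one with the highest mean was used. Accessions were named through a RefSeq table, which gave 26582 probes a symbol, 20145 symbols in all. This left 22282 items, 13963 with a symbol. Genome positions of probes were not used here.

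With limma 3.58.1 in R 4.3.3, means of the 3 groups were estimated from the 11 arrays together (8 residual and 2.51 prior degrees of freedom). Tests were 2-sided, Benjamini-Hochberg adjusted over all 22282 items, with a threshold of 0.05, and the fit was tested on simulated data. Errors of differences are SE, and the number of arrays limits precision. Members, lists, comparisons and the naming rule were chosen with earlier results of these data known. The rule names all 10 members, the 3 most changed called genes per list, or fewer, the most changed called marker, and the 2 genes most correlated with each called member. The text gives some of these. Replicate numbers follow the order of deposition and pair nothing.

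Alternatives were quantile normalization, a 75th percentile taken only from probes above background throughout, normexp background correction (offset 50) on median intensity, since no mean foreground column was used, the deposited log2 table, other filters, the mean over probes, slide as a fixed or random block (within-slide correlation 0.09), fits of 2 groups, leaving out each array and, added after the data were seen, no scaling between arrays.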

Additional observations from a re-analysis of the deposited data

Results flagged for a closer look

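In groups of 4 arrays, a single array was looked for whose gap to the nearest other exceeded Dixon's 95% critical share of the group's range, in 20 groups of 10 genes. Chance alone marks about 1 in 20 groups. The rule marked 4 here, 3 of them WT replicate 4. The genes share arrays and scaling, so the groups are not independent and the 4 marked cannot show an excess over that rate. Apoa2 stood low on β-catΔEx3:Myc replicate 1, at a log2 scaled signal of 10.50, and high on WT replicate 4, at 11.09. Apoc3 stood high on WT replicate 4 at 10.08, and so did Apoe at 10.82. In unscaled signal WT replicate 4 was the lowest WT array for Apoc3, at 246452. For Apoe it lay within the range of the other WT arrays, at 410111. For Apoa2 it stayed the highest WT array, at 493344, and β-catΔEx3:Myc replicate 1, at 513396, was not the lowest of its group. WT replicate 4 had the lowest upper quartile of all arrays, 227, and β-catΔEx3:Myc replicate 1 the highest, 354. The part of that scaling in these values was not tested. Without WT replicate 4, Apoc3 still passed in β-catΔEx3:Myc livers against WT.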

How the results depend on the processing

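Of 110 values of single members in each comparison under settings other than leaving out an array, 100 in β-catΔEx3 against WT, 92 in β-catΔEx3:Myc against WT and 103 in β-catΔEx3:Myc against β-catΔEx3 kept their sign and their side of the threshold. With slide as a fixed block, 1812 items were called in β-catΔEx3 against WT, 1947 in β-catΔEx3:Myc against WT and 178 in β-catΔEx3:Myc against β-catΔEx3, with 1 apolipoprotein gene in each of the first 2. In β-catΔEx3:Myc against WT the count of these genes was 5 with quantile normalization, 6 with the 75th percentile over detected probes and 5 in the deposited table. Over all items 9221, 9175 and 9295 were called in these settings, in that order, in place of 9451. Between the mutant groups the number of items called was 56, and 35 with the 75th percentile over detected probes, 86 for probes above background on all 11 arrays, 105 with slide as a random block and 9 in a fit of those 2 groups. Leaving out single arrays gave 7779 to 9834 items and 2 to 3 apolipoprotein genes in β-catΔEx3:Myc against WT, 6030 to 8399 items and 3 to 4 genes in β-catΔEx3 against WT, and 10 to 180 items and 0 genes between the mutant groups.

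No sign that turned was of a value past the threshold. In β-catΔEx3 against WT, Apoe was at -0.18 with the 75th percentile over detected probes, -0.22 with slide as a fixed block and -0.012 as a random block, Apoa4 at 0.72 with the fixed block and Apoa2 at 0.041 unscaled. In β-catΔEx3:Myc against WT, Apoe was at 0.0015 with quantile normalization, 0.025 in the deposited table and 0.067 unscaled, Apoa2 at 0.0315 in that table and 0.12 unscaled, Apoa4 at 0.97 with the fixed block and Ctnnb1 at 0.011 unscaled. Between the mutant groups Apoa2 was at 0.037 with quantile normalization, 0.033 in the deposited table and 0.080 unscaled, Apob at 0.0066 with the fixed block and 0.021 unscaled, Apoc1 at 0.013 and Apoe at 0.019 unscaled. Leaving out arrays, Apoe ran from -0.033 to 0.092 and Apoa2 from -0.053 to 0.11 in β-catΔEx3 against WT, Apoa2 from -0.10 to 0.054 in β-catΔEx3:Myc against WT, and between the mutant groups Apoa2 from -0.095 to 0.014, Apoa4 from -0.58 to 0.76 and Apob from -0.31 to 0.0066. The causes were not tested. Unscaled signals moved the median of all items by 0.18 in β-catΔEx3:Myc against WT, where 70.5% of called items were higher in place of 59.6%.

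No paired analysis was possible because the labels give no shared replicate numbers. Arrays that shared a slide were compared through slide as a block, and comparisons with WT then rest on slide 4.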
